A study of Drosophila melanogaster with 12 samples.

Results

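Osi1 to Osi9 are 9 Osiris genes that lie close together on the right arm of chromosome 3 of Drosophila melanogaster, and their transcripts were followed here in the heads of flies that express mouse TET2. They were taken by their FlyBase symbols from the 17730 genes counted. Osi2 was selected on its measured counts, because it was higher than control in every TET2 group, and the other 8 were taken because they lie next to it. Values of Osi2 against control are therefore a description and carry no test. With a summed count of at least 10 over all libraries as the condition for testing, 8 of the 9 genes entered the fit of 12433 genes. Osi6 had fewer read pairs and was not tested.

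The Osiris genes are a family found in insects and encode small proteins that enter the secretory pathway. They are best known from epithelia that build cuticle, such as the embryonic trachea and epidermis, where several members are switched on together while the apical extracellular matrix is laid down. Most of the family sits in a single cluster inside the Triplo-lethal region, a stretch of the genome where the flies tolerate neither a missing nor an extra copy.

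The 12 libraries were made from total RNA of heads of 1-day-old flies, with 3 biological replicates in each of 4 groups and 30 heads of both sexes pooled per replicate. Every fly, controls included, carried the dTet-Gal4 driver, which is active in cells that express the endogenous Tet gene. The control group had this driver over w1118 and no TET2 transgene. The mTET2-wt group carried UAS-linked wild type mouse TET2, the mTET2-R43G group a version with an N-terminal substitution, and the mTET2-R1261C group a version with a substitution in the catalytic domain. All 3 proteins had a Flag tag, and all 3 transgenes were placed at the same landing site on chromosome 2, so each genotype rests on 1 insertion. The transgene, its insertion and the background of the injected stock cannot be told apart in any comparison with control.

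Counted read pairs ranged from 15894383 to 19434046 per library, with a median of 17433509. At this depth 3 read pairs correspond to between 0.155 and 0.197 CPM, the count scaled to a common library size with the TMM factors of edgeR. In what follows, values of the TET2 groups stand in the order wild type, R43G, R1261C unless a group is named. As checks of the labels, white (w), whose mini-gene marks the transformation vector, had a mean of 4.71 CPM in control against 17.8, 22.7 and 22.1 CPM in the TET2 groups. The pigmentation gene yellow (y) had 1.43 CPM in control against 11.9, 11.6 and 11.4 CPM. Endogenous Tet was at 297 CPM in control and at 346, 409 and 327 CPM in the TET2 groups. Summed photoreceptor markers lay between 20235 and 28100 CPM and summed neuronal markers between 2188 and 2927 CPM. No gene of the 8 marker lists, of 4 to 8 genes each, passed the test in any comparison. Of all genes, 1.20%, 1.34% and 0.748% passed against control and 0.0724% to 0.145% between TET2 groups. At those shares, 0 in lists this short is not a result about cell composition. Of the 4 glial markers 1 had no read pairs. Glial, muscle, fat body, haemocyte and tracheal marker sums each varied by less than 3 times across libraries. Summed glial markers lay between 614 and 805 CPM in control. All libraries of mTET2-wt (566 to 606 CPM) and mTET2-R43G (487 to 581 CPM) lay below that range, and mTET2-R1261C (588 to 717 CPM) overlapped with it. Separation of this kind from control was found for 23.3% and 26.6% of single genes. In brains, the paper counted more Repo-positive glia than in control for mTET2-wt and mTET2-R43G, and no increase for mTET2-R1261C. Marker RNA summed over whole heads is another measure than a count of cells. A part of glial content in the Osi2 difference was not tested. Summed midgut markers lay between 15.2 and 174 CPM except in mTET2-wt replicate 3, which had 1939 CPM; leaving that library out did not end any call given here for Osi2.

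The 9 genes, called the cluster from here on, run over 88.557 kb. They reach from Osi1 (FBgn0037406, chromosome 3R, 6173549 to 6174971, plus strand, dm6) to Osi9 (FBgn0037416, 6260211 to 6262105, plus strand). The row of Osiris genes continues beyond Osi9, with Osi11 to Osi20 between 6267591 and 6341424 on 3R. Osi2 (FBgn0037410) occupies 6209373 to 6213493 on the plus strand and is annotated with 3 transcripts that begin at 6209373, 6210999 and 6211189 and end together. Exons make up 42.2% of its 4121 bases. Reads were counted over the whole gene, introns included, so the transcripts were not separated. Osi24, an Osiris gene outside the numbered run, ends 1694 bases before Osi2 on the same strand, and Osi3 (FBgn0037411) begins 2338 bases after it. Osi4 (FBgn0037412), 118 bases beyond Osi3, is the only one of the 9 on the minus strand. Osi5, Osi6, Osi7 and Osi8 follow between Osi4 and Osi9. None of the 9 overlaps another gene on either strand.

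Osi2 was detected in every library. In control heads it had 84, 121 and 78 read pairs, or 4.97, 6.23 and 4.50 CPM. The mTET2-wt libraries had 348, 362 and 459 read pairs, or 20.2, 18.9 and 23.8 CPM. The lowest mTET2-wt library lay well above the highest control library. The mTET2-R43G libraries had 568, 555 and 555 read pairs, or 34.3, 30.9 and 36.0 CPM. The mTET2-R1261C libraries had 589, 534 and 766 read pairs, or 38.6, 32.1 and 40.1 CPM. Both mutant groups lay above every mTET2-wt library and overlapped with each other. No TET2 group overlapped with control for Osi2, as was the case for 23.3%, 26.6% and 15.3% of all genes tested in the 3 comparisons with control.

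**Figure D1:**
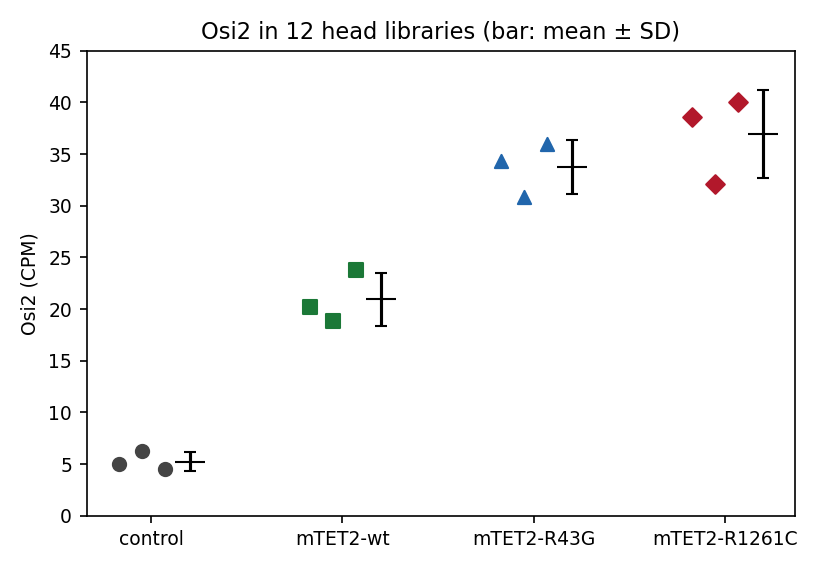
Osi2 in CPM (y axis, from 0) in the 12 head libraries, 3 per group (x axis). Points are libraries and bars are the mean ± SD; control libraries sit between 4.50 and 6.23 CPM, wild type TET2 libraries between 18.9 and 23.8, and mutant libraries between 30.9 and 40.1.

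The mean of Osi2 was 5.23 ± 0.899 CPM in control and 21.0 ± 2.55, 33.7 ± 2.60 and 36.9 ± 4.22 CPM in the TET2 groups (SD, n = 3 each). Osi2 was thus 3.99-fold, 6.42-fold and 7.04-fold higher than control. On the log2 scale these differences were 2.0 (95% interval 1.69 to 2.31), 2.68 (2.37 to 3.00) and 2.81 (2.50 to 3.13). These 3 comparisons share the control libraries, and they are the values that chose the gene. Of all genes tested, 1.20% were differentially expressed (adjusted p at most 0.05 and a log2 fold change of at least 1 in size) for wild type TET2 against control, 1.34% for R43G and 0.748% for R1261C.

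Osi2 was not among the more strongly expressed genes of the head. Per kb of gene it stood at 1.27 CPM in control, above 31.6% of the genes tested. With TET2 it stood at 5.08, 8.19 and 8.96 CPM per kb, above 51.6%, 63.9% and 65.6% of genes. The gene went from the lower part of the distribution to somewhat above its middle. Its biological coefficient of variation was 12.5%, close to the median of 13.5% over all genes tested. Because whole heads were measured, a larger number of cells expressing Osi2 and more Osi2 RNA per cell cannot be told apart.

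The difference between mutant and wild type TET2 was not used to choose Osi2 and was tested. In mTET2-R1261C, Osi2 was higher than in mTET2-wt by 0.82 on the log2 scale (SE 0.130, 95% interval 0.53 to 1.10, edgeR adjusted p = 0.0317), where 0.193% of all genes passed by the adjusted p alone. The difference was below the minimum fold change. Leaving out a wild type library, the adjusted p rose to 0.157 (replicate 1) or 0.130 (replicate 2), and leaving out an R1261C library it rose to 0.166 (replicate 1) or 0.102 (replicate 3). In mTET2-R43G it was higher than in mTET2-wt by 0.69 (SE 0.130, 95% interval 0.40 to 0.97), and this did not pass the adjusted threshold (edgeR adjusted p = 0.0908, unadjusted p = 0.000226), which 0.145% of all genes did. DESeq2 gave an adjusted p of 0.000515 for the same difference, the only 1 of 14 alternatives in which it was at most 0.05. All libraries of each mutant group exceeded all mTET2-wt libraries, with a gap of 7.08 CPM for mTET2-R43G and 8.33 CPM for mTET2-R1261C. Groups separated in this way were found for 20.3% and 11.5% of genes tested, respectively. The exact two-sided permutation test gave p = 0.1 for each, the smallest value that 3 against 3 libraries allow.

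Between the mutants, Osi2 differed by 0.13 (mTET2-R1261C minus mTET2-R43G, SE 0.129, 95% interval -0.15 to 0.41, edgeR adjusted p = 0.688, against 0.0965% of all genes that passed; exact permutation p = 0.3). The difference was smaller than the spread between replicates, and the interval includes differences of up to 0.41 in favour of mTET2-R1261C.

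None of the other genes of the cluster passed the test in any comparison. Osi9, which takes part in apical trafficking in the tracheal epithelium, had 112, 81 and 107 read pairs in control, 113, 141 and 154 with wild type TET2, 56, 116 and 111 with R43G, and 78, 106 and 119 with R1261C. The groups overlapped with control in all 3 comparisons. Means were 5.66 ± 1.30, 7.30 ± 0.716, 5.68 ± 2.02 and 5.91 ± 0.689 CPM (SD, n = 3). Its log2 differences from control were 0.37 (-0.17 to 0.91), 0.01 (-0.54 to 0.56) and 0.07 (-0.48 to 0.62), with edgeR adjusted p of 0.545, 0.989 and 0.969. None of these intervals reached the difference seen for Osi2, a value that chose that gene, so this is a description. All R1261C libraries lay below all wild type TET2 libraries in CPM, which was so for 11.5% of all genes, with an edgeR adjusted p of 0.957.

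Osi8 had 74, 87 and 45 read pairs in control, 70, 86 and 62 with wild type TET2, 99, 50 and 55 with R43G, and 70, 71 and 102 with R1261C. Means were 3.82 ± 1.06, 3.92 ± 0.645, 4.11 ± 1.67 and 4.73 ± 0.544 CPM (SD, n = 3). All groups overlapped with control. The log2 differences of 0.04 (-0.59 to 0.66), 0.10 (-0.52 to 0.73) and 0.31 (-0.31 to 0.93) had intervals that spanned 0.

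Osi7 was expressed at a lower level, with 7, 14 and 9 read pairs in control, 7, 10 and 13 with wild type TET2, 4, 14 and 15 with R43G, and 4, 11 and 9 with R1261C. Its groups overlapped with control throughout. The intervals of its log2 differences from control ran from -1.17 to 1.07, -0.85 to 1.37 and -1.38 to 0.90.

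Osi1, Osi3, Osi4, Osi5 and Osi6 were close to the limit of detection. Summed over the 12 libraries, Osi1 had 13 read pairs, Osi3 30, Osi4 59, Osi5 17 and Osi6 9. Osi6 was at 0 in all 3 mTET2-R43G libraries and had 1, 2 and 3 read pairs in control, where a count of 0 still allows 3 read pairs per library. Osi4, the most abundant of these genes, had 0, 7 and 2 read pairs in control, 6, 6 and 7 with wild type TET2, 4, 3 and 4 with R43G, and 4, 5 and 11 with R1261C. In CPM, all its R43G libraries lay below all wild type TET2 and all R1261C libraries, with edgeR adjusted p of 0.777 and 0.666. Groups were separated in the first of these comparisons for 20.3% of all genes. The intervals of the log2 differences of Osi4 from control ran from -0.58 to 2.64, -1.29 to 2.13 and -0.41 to 2.80. The first of them includes the difference seen for Osi2 in the same comparison, the R43G interval ends below it, and the R1261C interval ends at about its value. For Osi1, Osi3 and Osi5 the upper limits were 4.97, 3.25 and 2.59 with wild type TET2, 6.11, 3.19 and 2.97 with R43G, and 5.38, 3.83 and 2.94 with R1261C, each above the difference of Osi2.

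**Figure D2:**
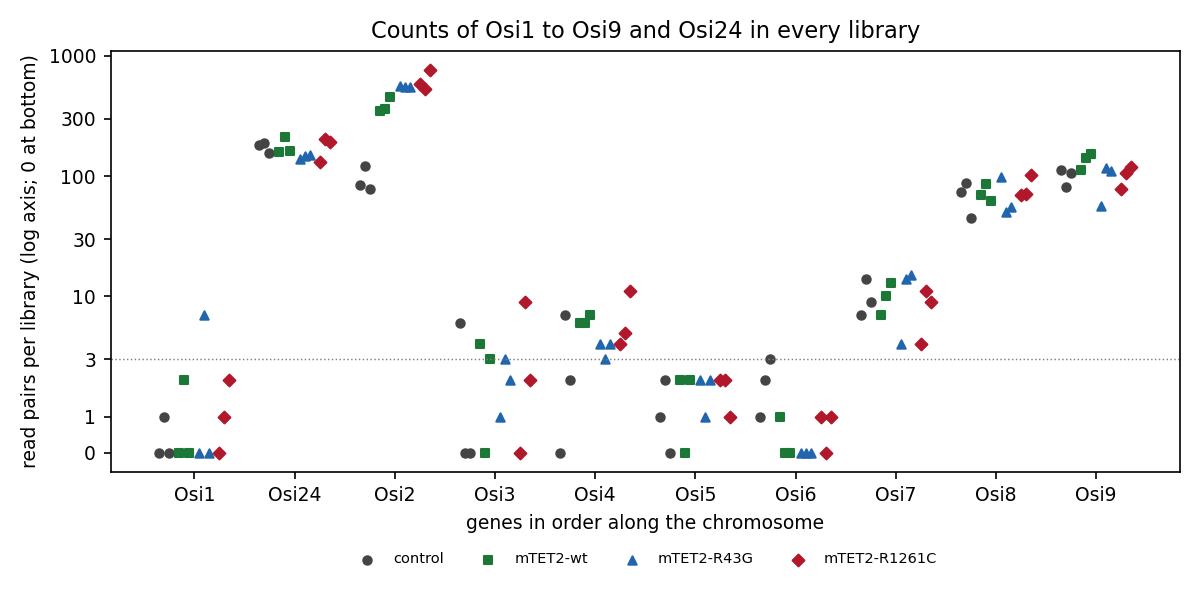
Read pairs per library (y axis, log scale with 0 drawn at the bottom) for Osi1 to Osi9 and Osi24 in their order on the chromosome (x axis), coloured by group. Osi2 is the gene whose TET2 libraries (348 to 766 read pairs) stand clear of its control libraries (78 to 121), while the dotted line at 3 read pairs marks the limit that a count of 0 allows.

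Besides Osi2, 0 of the 7 genes tested were differentially expressed against control by edgeR in any TET2 group, where 1.20%, 1.34% and 0.748% of all genes were. By the same rule 0 of the 8 genes, Osi2 included, were differentially expressed in R43G against wild type TET2 (0.0804% of all genes), in R1261C against wild type TET2 (0.145%) or between the mutants (0.0724%). None of the 7 had an unadjusted p under 0.05 in any of the 6 comparisons (a count of 0), and DESeq2 also called 0. Of all genes tested, 14.7%, 23.0% and 11.8% had an unadjusted p under 0.05 against control, 9.86% in R43G and 6.63% in R1261C against wild type TET2, and 13% between the mutants. These 7 were taken for their position, not for how they moved. Their median log2 difference from control was 0.34, 0.26 and 0.76, against -0.00, -0.01 and -0.01 over all genes tested, with Osi1, Osi3, Osi4 and Osi5 among them at few read pairs.

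**Figure D3:**
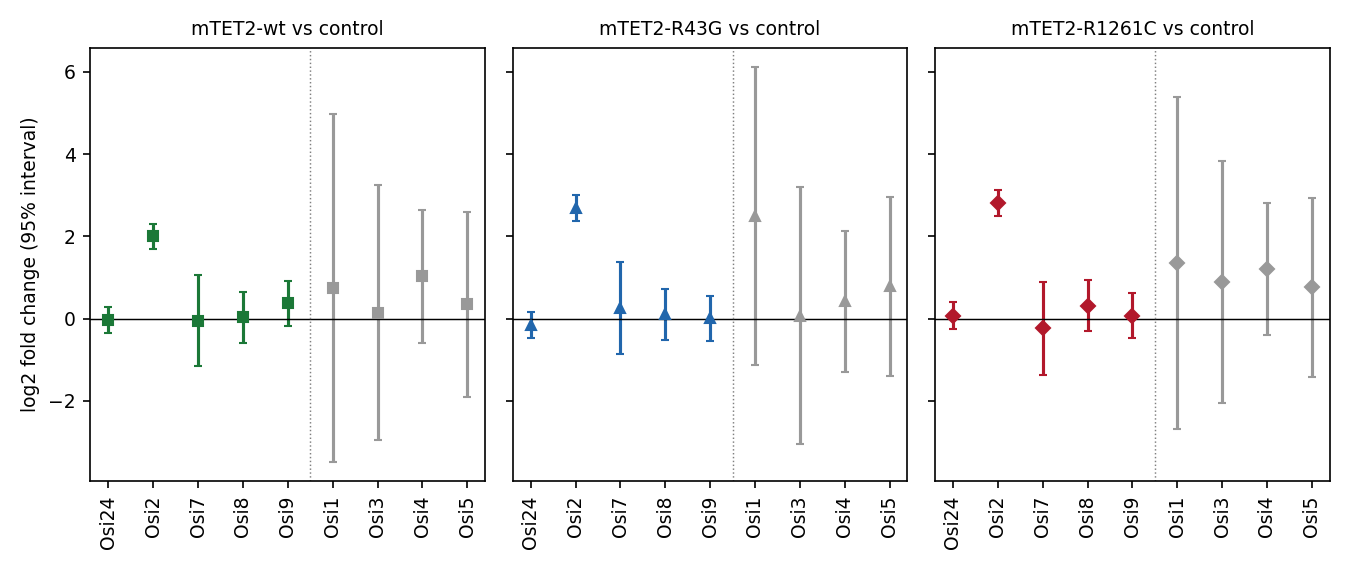
Log2 fold change against control (y axis) with 95% intervals for Osi24 and the 8 tested genes of the cluster, with a panel for each TET2 group. Coloured points are genes with over 100 read pairs in sum and grey points are those with fewer; Osi2 lies at 2.0, 2.68 and 2.81, and the intervals of the other genes include 0.

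The share of Osi2 in the RNA of the cluster follows from its level and is given as a description. In control, Osi2 took 29.5%, 38.4% and 32.0% of the read pairs of the 9 genes, a mean of 33.3 ± 4.61% (SD, n = 3). It took 62.8 ± 2.98%, 75.4 ± 1.77% and 75.5 ± 3.24% in the TET2 groups. The summed level of the other 8 genes was 10.5 ± 1.23 CPM in control and 12.3 ± 0.513, 11 ± 1.12 and 11.9 ± 1.30 CPM in the TET2 groups, between 9.57 and 12.9 CPM over all libraries.

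Per kb of gene, control heads had Osi9 at 2.98 CPM, Osi8 at 2.67, Osi2 at 1.27 and Osi7 at 0.205. The libraries of Osi9 and Osi8 overlapped, and both lay above all Osi2 libraries. In mTET2-wt the order was Osi2 at 5.08, Osi9 at 3.85, Osi8 at 2.74 and Osi7 at 0.198 CPM per kb of gene, and the lowest Osi2 library (4.58) lay above the highest Osi9 library (4.21). In the mutant groups Osi2 stood at 8.19 and 8.96 CPM per kb of gene, with Osi9 at 3.00 and 3.12 and Osi8 at 2.88 and 3.31. The order of Osi9 and Osi8 in the mutant groups lay within their spread. Per kb of exon the control levels were 4.16 for Osi9, 3.36 for Osi8 and 3.01 CPM for Osi2, and on that scale their libraries overlapped.

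Osi24, the nearest gene upstream of Osi2, had 183, 187 and 157 read pairs in control, 158, 210 and 163 with wild type TET2, 140, 147 and 151 with R43G, and 132, 204 and 193 with R1261C. Its means were 9.84 ± 0.903, 9.52 ± 1.28, 8.81 ± 0.857 and 10.3 ± 1.82 CPM (SD, n = 3). Per kb of gene it stood at 1.11 CPM in control, where its libraries overlapped with those of Osi2, and at 1.07, 0.994 and 1.17 CPM with TET2, below all Osi2 libraries of the same group. Its log2 differences from control were -0.05 (-0.36 to 0.27), -0.16 (-0.48 to 0.16) and 0.07 (-0.24 to 0.39), and none passed the test. Each interval ended below the difference seen for Osi2 in the same comparison. Those Osi2 differences chose the gene, so this is a description and not a test between the genes.

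Within 100 kb of the cluster lay 38 further genes, other Osiris genes included, of which 25 were tested and 11 had a mean of at least 1 CPM. By edgeR, 0 of the 25 were differentially expressed in any of the 6 comparisons. With an unadjusted p under 0.05 there were 1, 5 and 1 of the 25 in the TET2 groups against control. There were 2 in R43G and 1 in R1261C against wild type TET2, and 4 between the mutants. Over all genes the shares were 14.7%, 23.0% and 11.8% against control, then 9.86%, 6.63% and 13%, so these counts are not a result about the neighbourhood. DESeq2 called 0 with the minimum fold change. The p21-activated kinase gene Pak passed the adjusted p alone in mTET2-R43G against control, with a log2 difference of 0.58 and an edgeR adjusted p of 0.0227. By the adjusted p alone DESeq2 passed 2 of the 25 in that comparison, Pak (adjusted p = 0.000191) and CG17919 (log2 difference -0.47, adjusted p = 0.0268), and 1 between the mutants, Pak (log2 difference -0.49, adjusted p = 0.0207). The median log2 difference of the 11 better expressed genes was -0.05, -0.16 and -0.00 in the 3 comparisons with control. NPFR, the neuropeptide F receptor gene between Osi1 and Osi24, differed from control by -0.01, 0.15 and -0.00 on the log2 scale. The nearest differentially expressed gene on 3R other than Osi2 was CG14607 at 1028 kb with wild type TET2, Tim17a2 at 947 kb with R43G and alpha-Est4 at 1323 kb with R1261C. Besides Osi2, 37, 41 and 23 genes on 3R were differentially expressed in these comparisons. The distances were not set against the usual spacing between such genes.

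**Figure D4:**
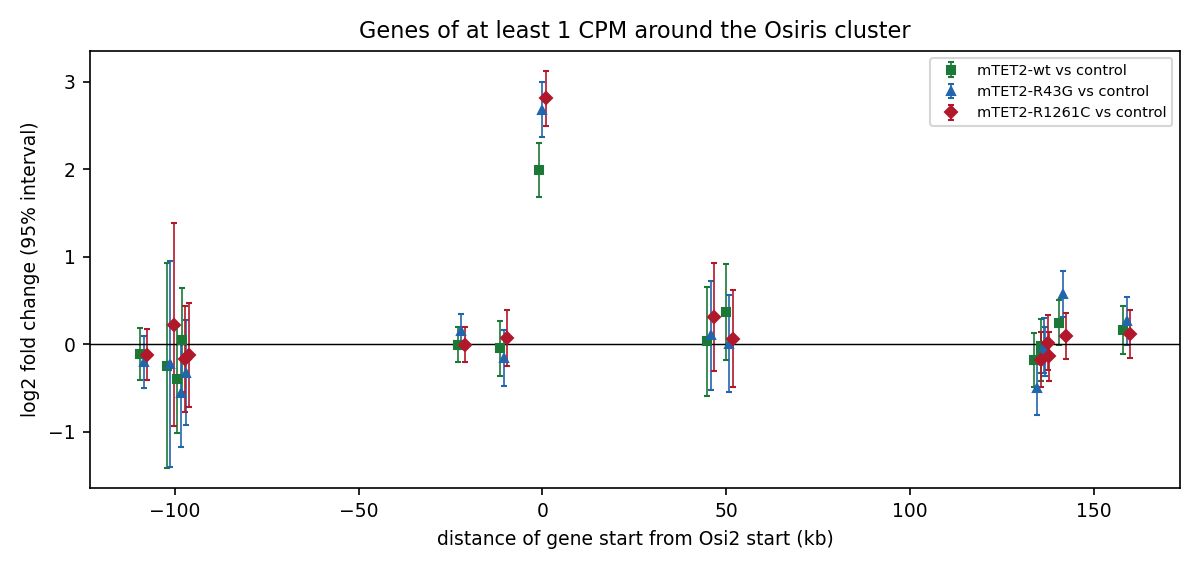
Log2 fold change against control (y axis, 95% intervals) of the genes with a mean of at least 1 CPM within 100 kb of the cluster, by distance of their start from that of Osi2 in kb (x axis), for the 3 TET2 groups. Osi2, at 0 kb, stands at 2.0 to 2.81, and the genes other than Osi1 to Osi9 lie between -0.56 and 0.58.

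Of the rest of the family, 14 further Osiris genes (Osi11 to Osi24) were counted under their symbols and 9 were tested. Osi11 to Osi20 and Osi24 are also among the genes within 100 kb described above. FBgn0037417, between Osi9 and Osi11, had no symbol in the reference and was not placed in the family. It had 3 read pairs in sum and was not tested. In each of the 6 comparisons 0 of the 9 were differentially expressed by edgeR, and DESeq2 called 0. With an unadjusted p under 0.05 there were 1, 1 and 2 of the 9 against control (14.7%, 23.0% and 11.8% of all genes), and 0, 1 and 1 in the comparisons between TET2 groups (9.86%, 6.63% and 13%). Osi22 had 1, 1 and 0 read pairs in control and 5, 8 and 11 in mTET2-R1261C (edgeR adjusted p = 0.0877, unadjusted p = 0.00211). Osi12 had 10, 5 and 19 read pairs in control and 3, 3 and 2 in mTET2-R43G (edgeR adjusted p = 0.0996). Both were picked out after their values were seen, and neither passed the threshold.

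The genes that build and line the apical matrix of cuticle-forming epithelia, including chitin synthesis and deacetylation enzymes and zona pellucida domain proteins, formed a list of 30, and all were tested. Of these, 1 rose and 0 fell in mTET2-R43G against control by edgeR, where 1.34% of all genes were called, and 0 passed the test in the other 5 comparisons. A count of 1 in a list of this size is not a result about the list. The gene that rose was ich, a zinc finger factor for the tracheal apical matrix, which had 2, 2 and 5 read pairs in control and 61, 10 and 32 in mTET2-R43G, a log2 difference of 3.58 (edgeR adjusted p = 0.0251). It had 5, 7 and 2 read pairs with wild type TET2 and 2, 2 and 7 with R1261C. The call for ich was lost on leaving out any 1 of the 3 control libraries or mTET2-R43G replicate 1. In mTET2-R43G against wild type TET2, ich was higher by 3.02 on the log2 scale without passing (edgeR adjusted p = 0.233). The paper, which used DESeq2, reports ich as upregulated in that comparison. The median log2 difference of the list from control was 0.03, -0.02 and 0.10. Tracheal marker genes summed to 378 to 537 CPM in control and to 421 to 467, 346 to 522 and 399 to 608 CPM in the TET2 groups, and their part in the Osi2 difference was not tested.

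Across the 12 libraries, the genes most like Osi2 in log2 CPM were sought among 9510 genes with a mean of at least 1 CPM. The 12 points fall into the 4 groups and share library depth, so the values describe the pattern over groups. Pearson's r was 0.982 for CG6592, 0.973 for w, 0.969 for cd, 0.960 for CG3604 and 0.956 for tok. CG6592 had 0 read pairs in each control library, 28 to 31 with wild type TET2, 34 to 59 with R43G and 45 to 56 with R1261C. The peroxidase gene cardinal (cd), which acts in ommochrome synthesis, had a mean of 14.6 CPM in control and 20.7, 22.4 and 25.1 CPM in the TET2 groups. The metalloprotease gene tolkin (tok) had 181 CPM in control and 232, 249 and 253 CPM in the TET2 groups. After the group means were subtracted, r with Osi2 was 0.12 for CG6592, 0.12 for w, 0.32 for cd, -0.28 for CG3604 and -0.26 for tok. Of the other genes of the cluster, only Osi8 and Osi9 reached a mean of 1 CPM and could be compared. They were not among the most similar, with r of 0.29 for Osi8 and 0.03 for Osi9, and neither was Osi24, with r of -0.14.

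**Figure D5:**
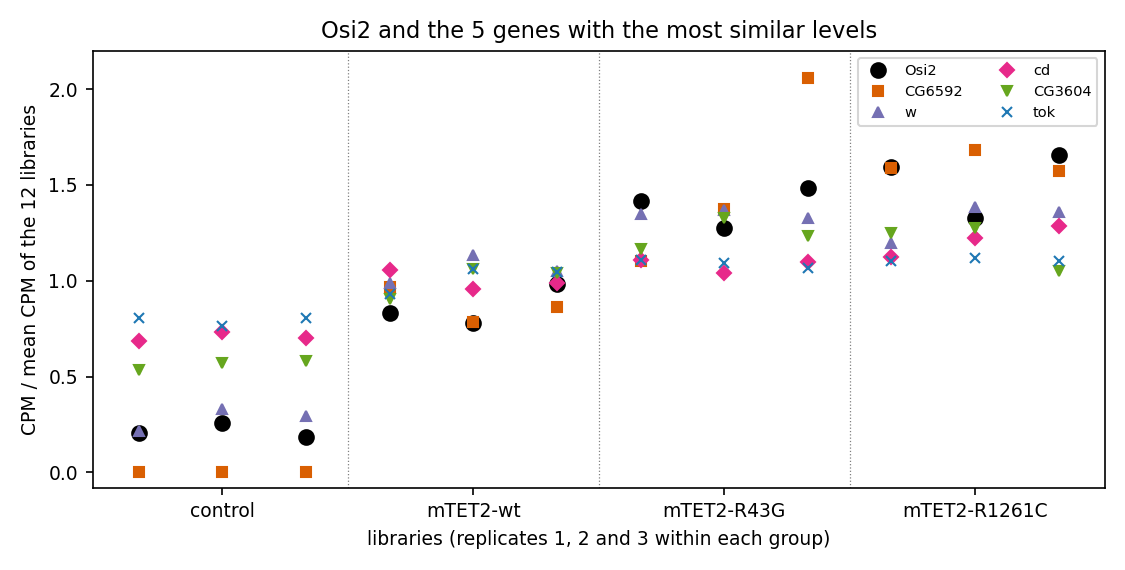
Level of Osi2 and of the 5 genes most like it, as CPM divided by the gene's own mean over the 12 libraries (y axis), in each library by group (x axis). All 6 are lowest in the control libraries, and CG6592 has no read pairs there; w, whose mini-gene is on the vector, is among them.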

How the data were processed

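RNA-seq libraries were stranded, ribodepleted and paired-end. The authors aligned reads to the dm6 genome with HISAT2 2.1.0 and deposited raw counts of read pairs per gene from featureCounts 1.6.0, as the file header gives it, counted over whole genes on the sense strand. The deposited gene length includes introns. The submitters' processing notes name featureCounts 2.0.1.

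Genes whose count summed to 10 or more were tested with the quasi-likelihood test of edgeR 4.0.16 (R 4.3.3) on TMM-scaled counts, with all 12 libraries in 1 fit and Benjamini-Hochberg adjustment over 12433 genes. Alternatives were DESeq2 1.42.0, other filters and scaling, a replicate block, and leaving out each library. On simulated counts for mTET2-wt against control with 12433 genes, edgeR recovered 76.3% of genes changed by a log2 fold of 2, and 1.93% of its calls were false. The numbers of the replicates did not pair the libraries, and p-values measure the spread between pools of heads.

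The genes named were all members, Osiris genes and neighbours by count, the 5 genes most like Osi2, called genes of the apical matrix list and the label checks. Members and lists were chosen with earlier results of these data known. Gene names came from the Ensembl annotation, in which 99.7% of the genes found had the deposited coordinates. Exon lengths came from the same annotation. Protein and promoter sequences were not used here.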

Additional observations from a re-analysis of the deposited data

How the results depend on the processing

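Osi2 stayed higher than control under all 14 alternatives in each comparison, with log2 differences of 1.90 to 2.15 in mTET2-wt, 2.59 to 2.83 in mTET2-R43G and 2.72 to 2.96 in mTET2-R1261C. The comparisons with control chose Osi2, so these ranges are a description and carry no test. Against mTET2-wt, the difference of mTET2-R43G was 0.70 with DESeq2 (adjusted p = 0.000515) and 0.63 to 0.79 when 1 library was left out. Its adjusted p was at most 0.05 in 1 of 14 alternatives, DESeq2, and with edgeR it reached 0.301. The difference of mTET2-R1261C from mTET2-wt was 0.82 with the replicate block (edgeR adjusted p = 0.0542) and 0.82 with only the compared groups in the fit (0.0739). It was 0.76 to 0.92 when 1 library was left out. Its adjusted p ran from 8.24e-06 to 0.166, at most 0.05 in 8 of 14 alternatives. Without the minimum fold change 1 member was called in mTET2-R1261C against mTET2-wt, Osi2, in place of 0. Of 551 values for the other members under the alternatives, 0 passed an adjusted p of 0.05 and 46 had another sign than in the reported fit. The cause of these shifts was not tested. The call for ich was lost as well with the replicate block, with filterByExpr and with only the compared groups in the fit. Same-numbered libraries correlated over 0.1 in 4 of 18 pairs. Osi1, Osi3, Osi4, Osi5 and Osi6 had between 9 and 59 read pairs over all libraries.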

Other observations

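Among the genes near the limit of detection, Osi1 had 7 read pairs in mTET2-R43G replicate 2 and at most 2 in each of the other 11 libraries. Osi3 had 9 read pairs in mTET2-R1261C replicate 2, 6 in control replicate 1 and at most 4 in the remaining 10.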
